A study of Mus musculus with 18 samples.

Results

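The 9 genes described here prepare and load peptides for MHC class I. They are Tap1, Tap2, Tapbp, B2m, the immunoproteasome subunits Psmb8, Psmb9 and Psmb10, and the proteasome activator subunits Psme1 and Psme2. They were taken by name, as every array probe whose gene symbol was a member, and were 9 of the 15757 genes tested. mRNA was measured in colon epithelial cells (CECs), sorted from the mouse colon as EpCAM+CD45-CD3- cells with macrophages gated out, on Illumina MouseWG-6 BeadChip arrays. The 4 groups were WT CECs without DSS (naive), WT CECs after DSS, Mbd2KO CECs without DSS and Mbd2KO CECs after DSS, with 4 samples in each. Mice were on a C57BL/6 background and aged 8 to 22 weeks, and a replicate held cells of 1 to 5 mice by the series' design text, where the study's methods give a wider range over all its sorted cell types. DSS (dextran sulfate sodium, which injures the colon epithelium and causes colitis) was given as 2% in drinking water for 6 days. Mbd2 encodes a protein that binds methylated CpG dinucleotides, and the knockout removes it from every cell of the animal, immune cells included, so the groups do not separate its loss in CECs from its loss elsewhere.

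Every nucleated cell shows its neighbours fragments of its own proteins on MHC class I. The proteasome cuts the proteins, the Tap1/Tap2 pump moves the peptides into the endoplasmic reticulum, and tapasin (Tapbp) holds an empty class I heavy chain at the pump until a peptide fits. B2m is the light chain without which class I is unstable at the cell surface. In cells exposed to interferon-gamma, Psmb8, Psmb9 and Psmb10 replace the catalytic subunits Psmb5, Psmb6 and Psmb7, which changes the peptides that are cut, and the PA28 cap made of Psme1 and Psme2 opens the core. Colonic epithelium is in contact with intraepithelial CD8+ T cells, which recognise class I.

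The 18 arrays detected 41.6 to 45.5% of the probes. The arrays named 4R and 5R were averaged with 4 and 5, because the SD of the log2 difference was 0.19 and 0.24 within these pairs against 0.29 to 0.48 between other arrays of the same groups. The number of DSS replicates per genotype that the study gives is reached only if these repeats are counted as replicates, and the count called with them so counted is given below. The 9 genes had 15 probes, of which 14 were detected on all 18 arrays and tested. The remaining B2m probe was detected on 0 arrays. Levels are given as log2 of normalised signal and cannot be compared between probes. The Mbd2 probe was detected on 0 of 18 arrays, so it gave no check of the genotype labels. All 12 epithelial markers, Epcam, Cdh1 and Vil1 among them, were measured. WT DSS sample 2 and naive Mbd2KO sample 15 stood apart on the second principal component (21.8% of the variance), and counts that rest on them are given below with and without both.

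The immunoproteasome subunits, the Tap pump and B2m were higher in Mbd2KO than in WT CECs, with and without DSS, and the increase was largest for Psmb8. With DSS, 7 of the 9 genes were higher in Mbd2KO at an adjusted p under 0.05, against 2.08% of all genes. At the thresholds of the study's methods (adjusted p under 0.01 and a log2 difference of at least 1), 1 of 9, Psmb8, was called, against 0.47% of all genes. The groups did not overlap for 8 of 9, against 5.84% of all genes. The median difference was 1.53 for the 9 genes and -0.02 for all genes. The count called was 5 with all 18 arrays taken as separate replicates and 1 with the repeat arrays left out. It was 2 without the samples that stood apart, when 5 genes had an adjusted p under 0.05 and Tap1 and Psmb10 did not. Leaving out a sample at a time gave 0 to 4 called, with 0 without WT DSS sample 2 and 4 without naive Mbd2KO sample 16.

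Without DSS, 6 of 9 genes were higher in Mbd2KO at an adjusted p under 0.05, against 2.4% of all genes. Psmb8, Psmb9 and Tap1 were called, 3 of 9 against 0.425%, and Tapbp, Psmb10 and B2m were called by their other probe but not by the brightest. Mbd2KO and WT samples did not overlap for 8 of 9 genes, against 6.39%. The median difference was 1.06 against -0.01 for all genes. Without the samples that stood apart, 2 genes were called and 7 had an adjusted p under 0.05, and 6 were called without naive Mbd2KO sample 16.

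DSS raised 5 of the 9 genes in WT CECs (Tap1, Psmb8, Psmb9, Psmb10 and Psme1) at an adjusted p under 0.05, against 6.26% of all genes. That count was 2 without WT DSS sample 1 or 4 and 3 without WT DSS sample 3 or naive WT sample 10 or 12. Tap1 was called, 1 of 9 against 1.51%. DSS and naive samples did not overlap for 6 of 9 genes that were higher with DSS, against 9.76%. In Mbd2KO CECs, DSS raised 1 of 9 genes, Psme1, against 5.17% of all genes (5 of 9 without naive Mbd2KO sample 13, and 2 without WT DSS sample 2 or naive WT sample 12), and called 0 of 9 against 1.24%, while 5 of 9 were higher at an unadjusted p under 0.05, against 12.8% of all genes. Groups did not overlap for 1 of 9, against 8.07%. These 4 comparisons share samples in pairs and are not independent of each other. Scaling arrays to a common median instead of quantile normalisation put the median DSS difference over all probes at 0.24 in WT and 0.23 in Mbd2KO, against -0.010 and -0.016. With that scaling, 5 members were called for DSS in WT, against 3.15% of all genes, and 1 in Mbd2KO, against 3.17%. The test of the difference itself, the interaction of genotype and DSS, called 0 of 9 genes against 0.0% of all genes. No member had an unadjusted p under 0.05 there, against 10.6% of all genes (smallest 0.111, for Tap1), and the intervals were wide.

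**Figure D1:**
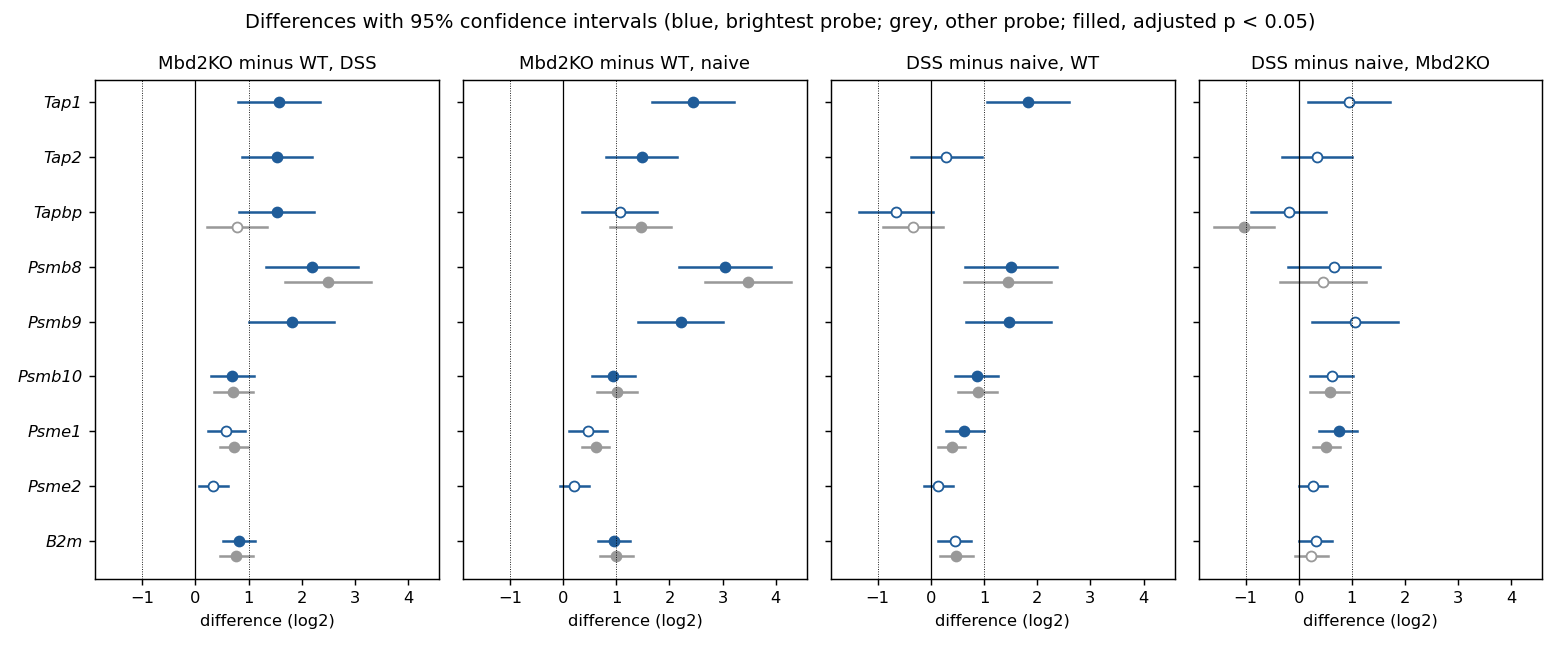
Log2 differences (x axis) of the 9 genes in 4 comparisons with 95% confidence intervals from limma, n = 4 per group. Blue marks the brightest probe of a gene, grey its other tested probe, filled circles an adjusted p under 0.05 and dotted lines a difference of 1 either way; Psmb8 lies farthest right in both comparisons of genotype, at 2.19 with DSS and 3.04 without.

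Tap1 and Psmb9 are divergent neighbours in the MHC region of chromosome 17, and 225 bases lie between their annotated starts. That stretch is printed because it is upstream of both genes and Mbd2 binds CpG dinucleotides when they are methylated. It is chr17:34187331-34187555 of GRCm38.p6 (RefSeq, plus strand, reading toward Tap1), with its 12 CpG sites in capitals. DNA methylation was not measured in these samples.
Tap1 and Psmb9 shared upstream stretch: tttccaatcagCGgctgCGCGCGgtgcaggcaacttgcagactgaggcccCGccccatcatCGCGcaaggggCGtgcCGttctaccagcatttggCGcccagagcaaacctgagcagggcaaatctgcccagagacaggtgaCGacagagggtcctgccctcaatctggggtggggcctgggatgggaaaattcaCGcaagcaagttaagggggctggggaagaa

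Tap1, the first chain of the peptide pump, had the lowest levels in naive WT CECs, at 6.49, 6.44, 6.60 and 6.97. It was 8.70, 7.89, 8.88 and 8.30 in WT CECs with DSS. In Mbd2KO CECs it was 10.16, 8.55, 9.61 and 7.94 without DSS and 9.95, 9.61, 10.57 and 9.94 with DSS. Every naive WT sample lay below all others, and the naive Mbd2KO samples spread over the range between WT and Mbd2KO with DSS. The Mbd2KO minus WT difference was 2.44 without DSS (5.43-fold, 95% interval 1.67 to 3.21, adjusted p = 0.00141, limma with Benjamini-Hochberg adjustment as throughout). With DSS it was 1.57 (2.98-fold, 0.80 to 2.34, adjusted p = 0.0192), and 1.39 (adjusted p = 0.0633) without the samples that stood apart. DSS raised Tap1 by 1.82 in WT (3.53-fold, adjusted p = 0.00514, and 0.000466 to 0.0282 over the alternatives). In Mbd2KO the difference was 0.95 (0.18 to 1.72, adjusted p = 0.113). The interaction was -0.87 (-1.96 to 0.22, adjusted p = 0.583), so unequal responses were not shown.

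Tap2, the other chain of the pump, separated by genotype more than by DSS. Its levels were 8.24, 8.59, 8.37 and 8.26 in naive WT CECs and 8.98, 8.37, 8.71 and 8.58 in WT with DSS. They were 10.38, 9.26, 10.59 and 9.14 in naive Mbd2KO CECs and 10.24, 9.44, 10.95 and 10.13 in Mbd2KO with DSS. All 8 Mbd2KO samples lay above all 8 WT samples. The genotype difference was 1.53 with DSS (2.90-fold, adjusted p = 0.0105) and 1.48 without (2.79-fold, adjusted p = 0.0146). The DSS difference was 0.29 in WT (-0.37 to 0.96) and 0.35 in Mbd2KO (-0.32 to 1.01), and neither passed the test.

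Tapbp encodes tapasin, and its 2 probes did not give the same picture. The brighter probe read 6.96, 6.93, 6.92 and 7.21 in naive WT CECs, 6.86, 5.26, 6.91 and 6.34 in WT with DSS, 8.13, 7.50, 9.02 and 7.61 in naive Mbd2KO and 7.79, 7.55, 8.20 and 7.95 in Mbd2KO with DSS. Mbd2KO samples were above WT samples throughout, and WT DSS sample 2 lay far below the other 3 of its group. By this probe the genotype difference was 1.53 with DSS (adjusted p = 0.0141) and 1.06 without (adjusted p = 0.0721). By the other probe it was 0.78 with DSS (adjusted p = 0.0956) and 1.46 without (adjusted p = 0.00616). The direction of the genotype difference was shared by both probes, and which comparison passed was not. No probe showed an increase of Tapbp with DSS: the brighter probe differed by -0.66 in WT (-1.36 to 0.04, and -0.30 without WT DSS sample 2) and -0.19 in Mbd2KO, and the other probe by -0.34 and -1.02 (adjusted p = 0.0234 for the latter). Under median scaling the brighter probe's Mbd2KO difference was 0.14, with the opposite sign.

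The Tapbp probe sequences are shown because the probes disagreed. By its annotation, the brighter probe matches the transcript from position 1036. The annotation gives no Entrez identifier or genome position for it, nor for the brightest Psmb8 probe. No probe of another gene on the array shared 20 bases with the brighter Tapbp probe.
Tapbp brighter probe: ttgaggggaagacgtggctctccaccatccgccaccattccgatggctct
The other probe starts at position 2040 of another Tapbp transcript. Its bases 1 to 30 held runs of at least 20 bases that 3 probes of 3 other genes also contain, on either strand, and it was the only member probe of 15 with such a run. The part of this in the disagreement was not tested.
Tapbp other probe, bases 1 to 30: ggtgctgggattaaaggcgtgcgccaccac

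**Figure D2:**
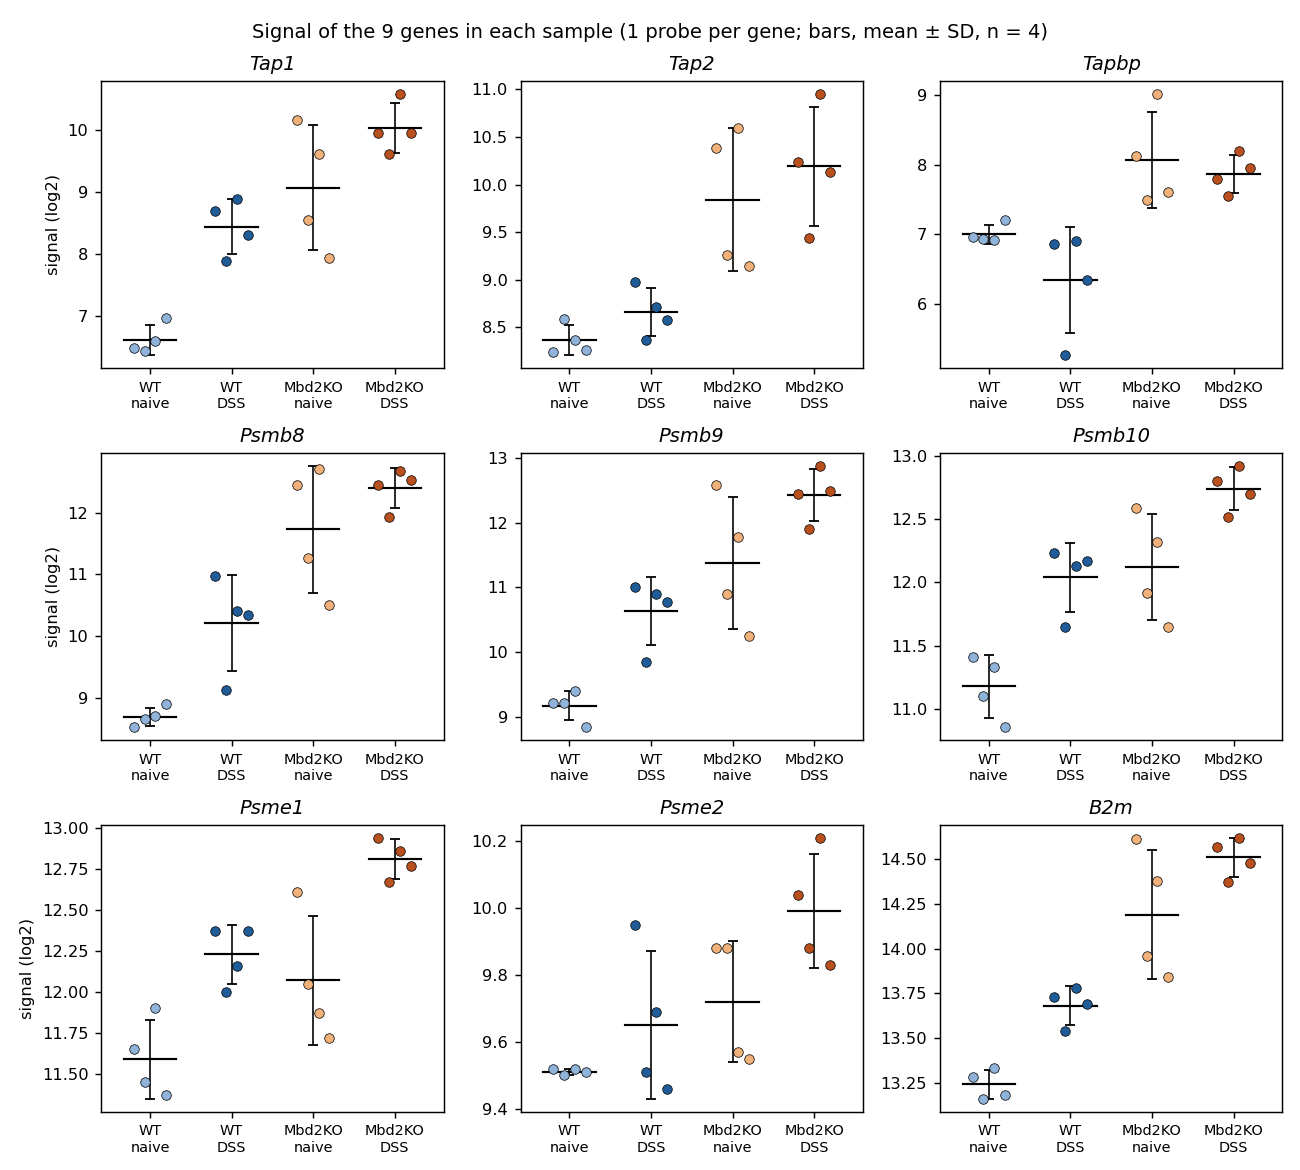
Log2 signal (y axis, own scale per gene) of the brightest probe of each gene in each of the 16 samples, by group. Points are samples and bars the mean ± SD (n = 4); naive WT samples sit lowest for Tap1, Psmb8 and Psmb9, and naive Mbd2KO samples spread widely, as for Psmb9 from 10.25 to 12.58.

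Psmb8 is the immunoproteasome subunit that takes the place of Psmb5, and it showed the largest genotype differences among the 9 genes in both comparisons. Its level was 8.53, 8.65, 8.70 and 8.90 in naive WT CECs and 10.97, 9.12, 10.40 and 10.35 in WT with DSS. It was 12.45, 11.26, 12.71 and 10.51 in naive Mbd2KO CECs and 12.45, 11.93, 12.68 and 12.53 in Mbd2KO with DSS. WT samples did not overlap with Mbd2KO samples under the same treatment, while WT DSS sample 1 was above naive Mbd2KO sample 16. Mbd2KO exceeded WT by 3.04 without DSS (8.22-fold, 95% interval 2.18 to 3.90, adjusted p = 0.000603) and by 2.19 with DSS (4.57-fold, 1.33 to 3.05, adjusted p = 0.00621). The other Psmb8 probe gave 3.48 (11.2-fold, adjusted p = 0.000128) and 2.50 (5.65-fold, adjusted p = 0.00228). DSS raised Psmb8 by 1.51 in WT (2.86-fold, adjusted p = 0.0273, and 0.00283 to 0.0711 over 28 alternatives, under 0.05 in 20), and the difference in Mbd2KO was 0.67 (-0.20 to 1.53, adjusted p = 0.333).

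The other Psmb8 probe is shown because it gave the largest difference of the member probes. It reads the transcript from position 456.
Psmb8 other probe: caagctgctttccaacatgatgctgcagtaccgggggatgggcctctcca

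Psmb9, which replaces Psmb6, followed the same order of groups. Its levels were 9.21, 9.21, 9.40 and 8.84 in naive WT CECs and 11.00, 9.84, 10.89 and 10.78 in WT with DSS. They were 12.58, 10.90, 11.78 and 10.25 in naive Mbd2KO CECs and 12.45, 11.91, 12.88 and 12.49 in Mbd2KO with DSS. The naive Mbd2KO samples overlapped with WT after DSS. The genotype difference was 2.21 without DSS (4.63-fold, adjusted p = 0.0038) and 1.81 with DSS (3.50-fold, adjusted p = 0.0117). DSS raised Psmb9 by 1.46 in WT (2.75-fold, adjusted p = 0.0224, and 0.00208 to 0.0653 over 28 alternatives, under 0.05 in 23), and in Mbd2KO the difference was 1.06 (0.25 to 1.86, adjusted p = 0.091).

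Psmb10, the counterpart of Psmb7, lies on chromosome 8, away from the MHC, and changed less. It was 11.41, 11.10, 11.33 and 10.86 in naive WT CECs, 12.23, 11.65, 12.13 and 12.17 in WT with DSS, 12.59, 11.92, 12.32 and 11.65 in naive Mbd2KO and 12.80, 12.52, 12.92 and 12.70 in Mbd2KO with DSS. Samples separated by genotype under each treatment and by DSS in WT. Mbd2KO exceeded WT by 0.94 without DSS (1.92-fold, adjusted p = 0.0113) and 0.69 with DSS (1.62-fold, adjusted p = 0.0429), and DSS raised it by 0.87 in WT (1.82-fold, adjusted p = 0.00928). The genotype difference with DSS had an adjusted p under 0.05 in 17 of 28 alternatives (0.0104 to 0.148), and was 0.56 (0.131) without the samples that stood apart. The other Psmb10 probe gave 1.01 (adjusted p = 0.00385) and 0.71 (adjusted p = 0.0249) for genotype, and its DSS difference in Mbd2KO, 0.58, had an adjusted p of 0.0458 where the brighter probe's 0.62 had 0.0519.

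The PA28 subunits, both encoded on chromosome 14, differed least between genotypes by the brightest probes. Psme1 ranged from 11.37 to 11.90 in naive WT CECs, 12.00 to 12.37 in WT with DSS, 11.72 to 12.61 in naive Mbd2KO and 12.67 to 12.94 in Mbd2KO with DSS. By the brightest probes it was the member that passed for DSS in both genotypes, with increases of 0.63 in WT (1.55-fold, adjusted p = 0.0263) and 0.75 in Mbd2KO (1.68-fold, adjusted p = 0.0119). The WT increase had an adjusted p under 0.05 in 24 of 28 alternatives (0.00125 to 0.0792). Its genotype difference by the brighter probe was 0.58 with DSS (adjusted p = 0.0542) and 0.47 without (adjusted p = 0.111), and by the other probe 0.73 (adjusted p = 0.00346) and 0.61 (adjusted p = 0.011). The brighter probe's 0.58 and 0.47 had an adjusted p under 0.05 in 9 and 1 of 28 alternatives. The 0.47 was 0.29 without naive Mbd2KO sample 13. Psme2 ranged from 9.50 to 9.52 in naive WT, 9.46 to 9.95 in WT with DSS, 9.55 to 9.88 in naive Mbd2KO and 9.83 to 10.21 in Mbd2KO with DSS. None of its differences passed, and the intervals reached at most 0.61 (Mbd2KO against WT with DSS, 0.07 to 0.61). Over the alternatives, its DSS difference reached 0.55 in WT and 0.65 in Mbd2KO. Each had an adjusted p under 0.05 in 1 of 28, as did its genotype difference with DSS.

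B2m, on chromosome 2, had SDs under those of Tap1, Psmb8 and Psmb9 in every group. Its levels were 13.28, 13.16, 13.33 and 13.18 in naive WT CECs and 13.73, 13.54, 13.78 and 13.69 in WT with DSS. They were 14.61, 13.96, 14.38 and 13.84 in naive Mbd2KO and 14.57, 14.37, 14.62 and 14.48 in Mbd2KO with DSS. All Mbd2KO samples lay above all WT samples. The genotype difference was 0.96 without DSS (1.94-fold, 95% interval 0.65 to 1.26, adjusted p = 0.00141) and 0.83 with DSS (1.77-fold, 0.52 to 1.13, adjusted p = 0.00398), past the p threshold and short of the threshold on size by this probe. DSS against naive was 0.45 in WT (adjusted p = 0.0561, and under 0.05 in 11 of 28 alternatives) and 0.32 in Mbd2KO (adjusted p = 0.184). By the other tested probe the WT difference was 0.48 (adjusted p = 0.0479). The 2 tested B2m probes overlap by all but 1 base and gave near-equal values, so they are not separate measurements. The genotype difference without DSS by the other probe, 1.00 (adjusted p = 0.00127), was nonetheless called for B2m. The 250 bases before its start, chr2:122147437-122147686 (GRCm38.p6, plus strand), are printed because they held matches to both motifs reported here, which the capitals mark: an interferon-stimulated response element (ISRE, searched as GAAA, any 2 bases and GAAA) and, on the opposite strand, an NF-kB site (the capitals nearer the gene).
B2m upstream stretch: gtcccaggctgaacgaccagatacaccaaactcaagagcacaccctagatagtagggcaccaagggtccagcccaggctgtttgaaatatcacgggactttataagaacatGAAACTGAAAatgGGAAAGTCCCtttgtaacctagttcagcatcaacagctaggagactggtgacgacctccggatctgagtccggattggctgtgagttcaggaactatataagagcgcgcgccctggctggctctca

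RefSeq promoter windows (250 bases before to 50 after a start, GRCm38.p6) were matched by symbol for 8 of the 9 genes, and 2 motifs are reported, each searched on both strands. The ISRE letters were found in the windows of B2m and Psme1, and in 3.44% of all 32851 windows. The NF-kB letters were found in the window of B2m and in 0.155% of all windows. The windows of Tap1, Psmb9, Tapbp, Psmb8, Psmb10 and Psme2 held none of these letters, which says nothing of other sites or of sites outside the window. The matches in B2m did not overlap each other. CpG sites numbered 15 for Tap1, 17 for Psmb9, 11 for Tapbp and Psmb8, 19 for Psme1, 14 for B2m, 3 for Psmb10 and 12 and 11 for the 2 windows of Psme2, against a median of 7 over all windows. Of all windows, 23.3% had fewer CpG sites than that of Psmb10, and 58.6 to 71.9% had fewer than those of the other members.

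**Figure D3:**
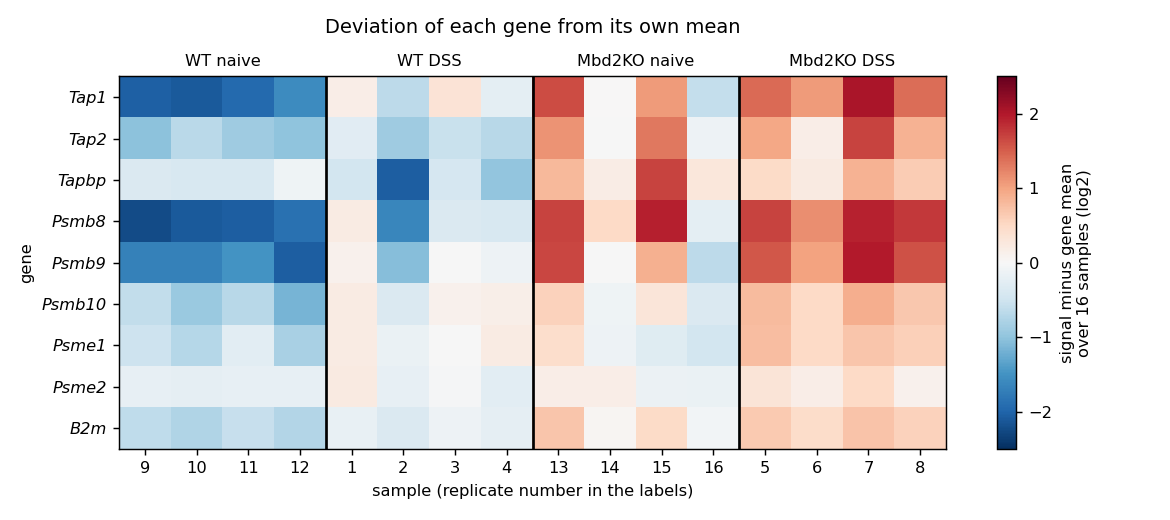
Each gene's log2 signal minus its own mean over the 16 samples (colour), with genes as rows and samples as columns, numbered as in the labels. The columns of WT DSS sample 2 and naive Mbd2KO sample 16 are lowest within their groups for 8 of 9 genes, and Mbd2KO DSS sample 7 is highest for 8 of 9.

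In 3 of the 4 groups, 1 sample was lowest for most of the 9 genes. The mean of the 9 levels was 9.45 to 9.56 in naive WT CECs, 9.69 to 10.53 in WT with DSS, 10.25 to 11.49 in naive Mbd2KO and 11.10 to 11.77 in Mbd2KO with DSS. WT DSS sample 2, naive Mbd2KO sample 16 and Mbd2KO DSS sample 6 were lowest in their groups for 8 of 9 genes each, while in naive WT no sample was lowest for more than 3 genes. Mbd2KO DSS sample 7 was highest for 8 of 9 and naive Mbd2KO sample 13 for 6 of 9. The median SD over the 9 genes was 0.69 in naive Mbd2KO, against 0.21 over all genes in the same samples, and it was 0.16 in naive WT, 0.27 in WT with DSS and 0.27 in Mbd2KO with DSS. Group means ran from naive WT through WT with DSS and naive Mbd2KO to Mbd2KO with DSS for 7 of 9 genes, against 4.96% of all genes. In that order, naive WT and WT with DSS overlapped for 2 of 9 genes (82.3% of all genes), WT with DSS and naive Mbd2KO for 6 (80%), and naive Mbd2KO and Mbd2KO with DSS for 8 (83.8%).

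Signal for each immunoproteasome subunit was then set against that of the constitutive subunit it replaces, within each sample, to ask whether the pair changed unequally. The constitutive subunits did not pass in any comparison: Psmb5 differed between genotypes by 0.38 with DSS (adjusted p = 0.0652) and 0.20 without, Psmb6 by 0.06 and -0.05, and Psmb7 by 0.06 and -0.12. The Psmb8 minus Psmb5 difference was -2.27 ± 0.25 in naive WT CECs, -0.66 ± 0.71 in WT with DSS, 0.57 ± 1.01 in naive Mbd2KO and 1.15 ± 0.33 in Mbd2KO with DSS (mean ± SD, n = 4, log2). Only differences between groups are read from it, since probes differ in brightness. It was higher in Mbd2KO by 2.84 without DSS and 1.81 with DSS and higher with DSS by 1.61 in WT. The corresponding differences were 2.26, 1.75 and 1.35 for Psmb9 minus Psmb6, and 1.06, 0.63 and 0.76 for Psmb10 minus Psmb7. In each of these 9 tests the groups did not overlap, which gives the smallest p that 4 against 4 allows (0.0286, exact permutation test, two-sided, 0.0381 after Benjamini-Hochberg adjustment over 12 tests). With DSS in Mbd2KO the ratios differed by 0.58, 0.83 and 0.33 (p = 0.371, 0.229 and 0.343, exact permutation tests). Leaving out 1 sample at a time gave 0.22 to 0.94, 0.48 to 1.17 and 0.13 to 0.52.

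**Figure D4:**
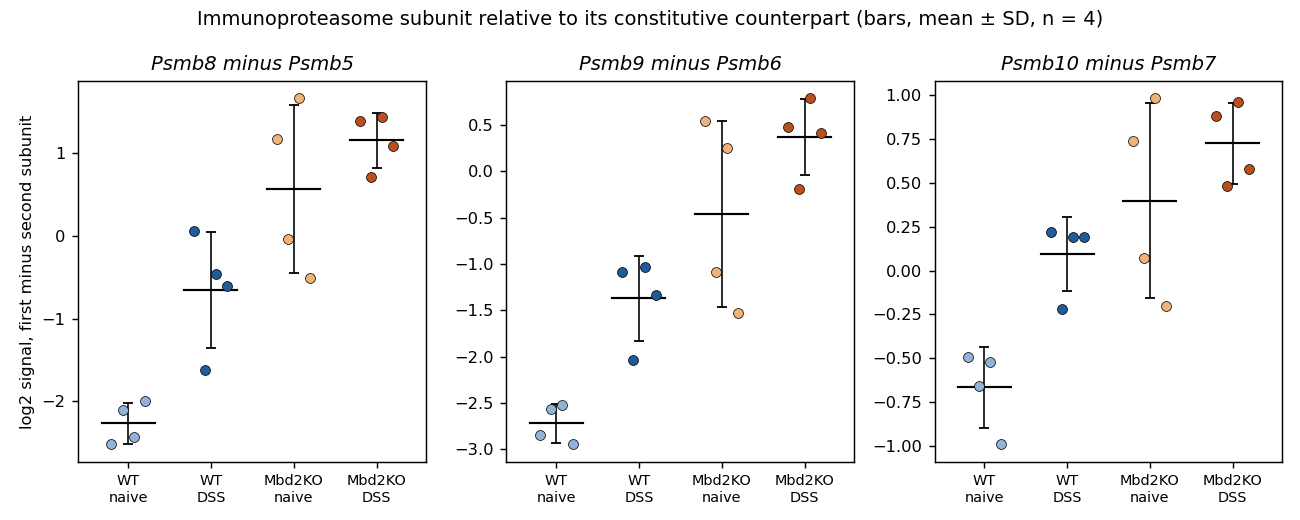
Log2 signal of each immunoproteasome subunit minus that of its constitutive counterpart (y axis, own scale per panel) in each sample, by group, with mean ± SD (n = 4). WT samples lie below Mbd2KO samples under the same treatment in each panel, as for Psmb8 minus Psmb5 with means of -2.27 and 0.57 without DSS.

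The rest of the proteasome and of the class I pathway were described by lists chosen for their roles. Of the 6 constitutive catalytic and cap genes (Psmb5, Psmb6, Psmb7, Psme3, Psme4 and the assembly factor Pomp), 0 passed in either genotype comparison, with medians of 0.06 with DSS and -0.02 without. Psme4 differed by 0.04 and 0.03 and Psme3 by 0.11 and -0.21. Pomp rose with DSS in WT by 0.40 (adjusted p = 0.0358). Of the 24 other core and base subunits tested (of 28), 0 passed for genotype at an adjusted p under 0.05, and differences ranged from -0.08 to 0.33 with DSS and -0.42 to 0.39 without. DSS raised Psma5 and Psmb3 in both genotypes, and Psmc5 and Psmd6 in Mbd2KO.

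Among chaperones and peptidases of the loading pathway, 8 of 12 genes were tested, and 2 were higher in Mbd2KO with DSS, against 2.08% of all genes. These were Tapbpl, a peptide editor related to tapasin (0.94, adjusted p = 0.0163), and the chaperone Calr (0.82, adjusted p = 0.0129). Without DSS, Tapbpl passed (1.03, adjusted p = 0.0121) and Calr did not (0.23, adjusted p = 0.464). DSS raised Tapbpl in WT (0.86, adjusted p = 0.0167) and Mbd2KO (0.78, adjusted p = 0.0284), and raised the trimming peptidase Erap1 in WT (0.59, adjusted p = 0.0473). Pdia3, the partner of tapasin in the loading complex, differed by 0.22 and 0.32 between genotypes (adjusted p = 0.195 and 0.0654).

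Of the class I heavy chains, 12 of 20 were tested. In Mbd2KO with DSS, 9 were higher, against 2.08% of all genes. Among these, H2-Q8 was at 3.17 (adjusted p = 0.00164), H2-K1 at 1.53 (0.00679) and H2-D1 at 0.73 (0.011). The lipid-presenting Cd1d1 was lower (-0.47, adjusted p = 0.045). Without DSS, 5 were higher, against 2.4% of all genes, H2-Q7 at 1.44 (adjusted p = 0.00583) and H2-D1 at 0.76 (0.0106) among them. Cd1d1 was lower here too. H2-K1 was at 0.99 (adjusted p = 0.0587). Probes for these near-identical genes may share targets, so single heavy chains are uncertain. None of the 12 passed for DSS in either genotype at an adjusted p under 0.05, with medians of -0.11 in WT and 0.02 in Mbd2KO.

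Among 14 tested regulators of class I genes and members of interferon-gamma signalling, Irf1, which acts on the Tap1, Psmb9 and B2m promoters, was higher in Mbd2KO without DSS (0.83, adjusted p = 0.0174) and with DSS in WT (0.88, 0.00674), and differed by 0.55 with DSS between genotypes (0.0888). Ciita, the master regulator of class II genes, which can also act on class I and B2m, was higher by 3.47 with DSS (adjusted p = 0.00076). That size is uncertain, since the WT DSS mean, 5.31, was near the undetected naive WT level of 4.45. Without DSS Ciita was also higher (adjusted p = 0.00131), and no size is given because it was detected on 0 of 4 naive WT arrays. Of the receptor chains, Ifngr1 differed by -0.10 and 0.04 between genotypes and Ifngr2 by 0.09 and -0.40, none of which passed, and Ifngr2 rose with DSS in Mbd2KO (0.66, adjusted p = 0.0139). Ifng itself was detected on 4 of 18 arrays, all in Mbd2KO (1 naive, 3 with DSS), and its differences did not pass. In all, 3 of 14 were higher in Mbd2KO with DSS, against 2.08% of all genes, and 4 of 14 without, against 2.4%. Beside Ciita and Irf1, these were Stat2 (0.69, adjusted p = 0.0293 with DSS and 0.97, 0.00539 without), Irf8 with DSS (0.78, 0.00703) and Irf9 without (1.15, 0.0017, called). In WT, DSS also raised Stat2, Irf8 and Irf9 and lowered Jak1 (-0.32, adjusted p = 0.0473). In Mbd2KO it also raised Irf8 and Socs1 and lowered Rfxank (-0.57, adjusted p = 0.0217) and Irf2 (-0.58, 0.0445).

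**Figure D5:**
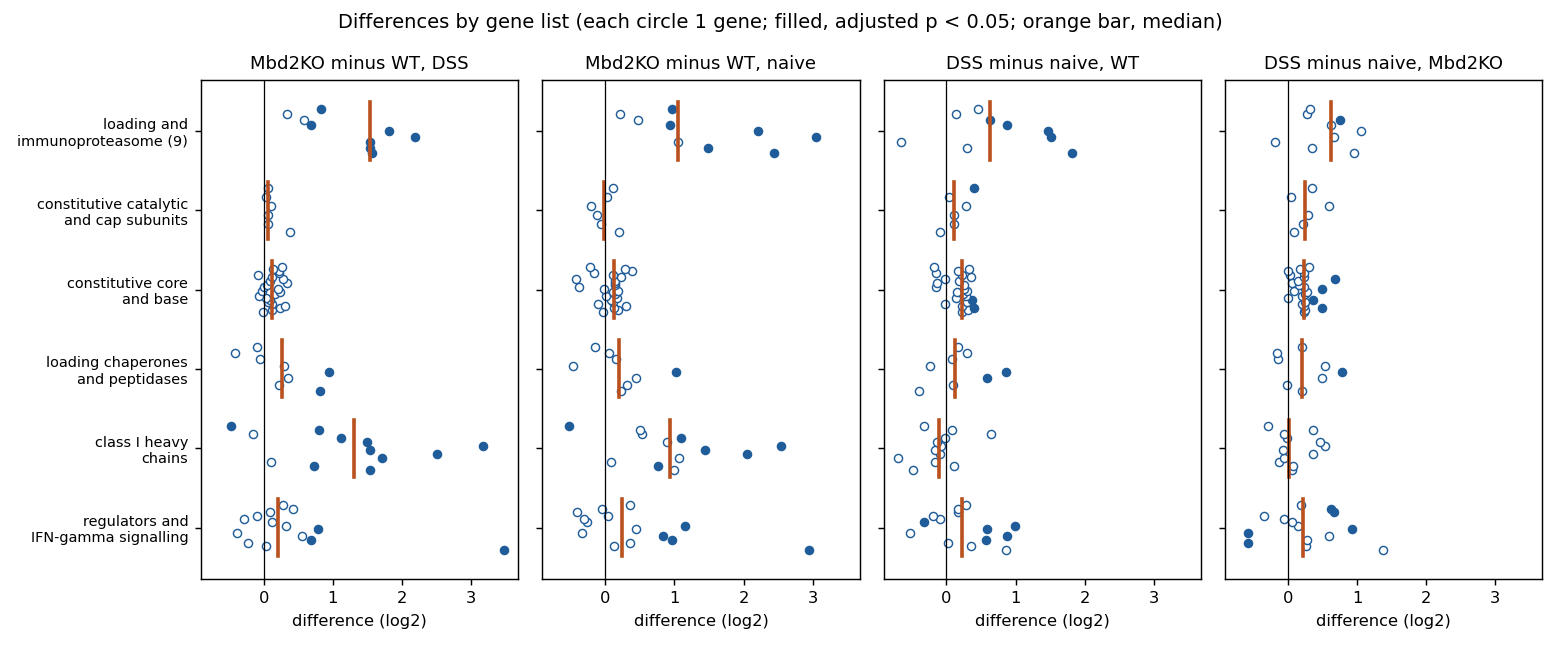
Log2 differences (x axis) for the 9 genes and 5 related lists (rows) in 4 comparisons (panels). Each circle is 1 gene, filled at an adjusted p under 0.05, and the bar is the median; for genotype with DSS the medians were 1.53 for the 9 genes, 0.06 for constitutive catalytic and cap subunits and 1.30 for heavy chains.

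Several defining markers of other cells that a sort could retain were not detected. Of T and NK cell markers, 6 of 12 were tested, Cd8a and Gzmb were detected on 0 arrays, and Ptprc and Cd3e on too few to test. Their summed linear signal was 1005 to 2101 in naive WT, 1806 to 2565 in WT with DSS, 915 to 1160 in naive Mbd2KO and 2210 to 2484 in Mbd2KO with DSS. Without Prf1, which made up most of it, that sum was 189 to 265 in naive WT and 201 to 226 in naive Mbd2KO. With DSS it was 269 to 346 in WT and 264 to 318 in Mbd2KO. None of the 6 tested was higher in Mbd2KO at an adjusted p under 0.05. Cd4, Nkg7 and Cd3d were detected on only 4, 5 and 8 arrays, so this says little for them. Cd3g was lower in Mbd2KO with DSS (-0.45, adjusted p = 0.049), but was detected on only 4 WT and 2 Mbd2KO arrays there. Its DSS means, 5.23 in WT and 4.78 in Mbd2KO, were near its undetected naive levels of 4.55 and 4.61. The size of that difference is therefore uncertain. DSS raised Cd3g, Cd3d and Lck in WT and Prf1 in Mbd2KO, with Cd3g and Cd3d detected on 0 naive arrays. Of macrophage and dendritic cell markers, 5 of 11 were tested, and Itgam, Itgax, Xcr1 and Flt3 were detected on 0 arrays. Their sum was 1177 to 1600 in naive WT, 1756 to 3484 in WT with DSS, 1441 to 2703 in naive Mbd2KO and 2957 to 3504 in Mbd2KO with DSS. DSS raised 4 of 5 of them (Lyz2, Csf1r, Adgre1 and Cd68) in both genotypes, against 6.26% of all genes in WT and 5.17% in Mbd2KO. Csf1r was higher in naive Mbd2KO. In naive Mbd2KO samples 13, 15, 14 and 16, the sum was 2703, 2572, 1979 and 1441, the same order as the mean of the 9 genes (11.49, 11.32, 10.59 and 10.25) and as the B and plasma cell sums (417, 335, 296 and 121). Such sums lean on their brightest probe: Cd14 made up 53.9 to 82.4% of the macrophage and dendritic cell sum, Prf1 75.3 to 89.5% of the T and NK cell sum and Mzb1 52.0 to 82.4% of the B and plasma cell sum. Without Cd14 the macrophage and dendritic cell sum kept that order in these 4 samples, at 703, 546, 414 and 298. The order was shared in part in the DSS groups. WT DSS sample 2 was lowest in both the macrophage and dendritic cell sum (1756) and the mean of the 9 genes (9.69), while WT DSS sample 1, with the highest mean (10.53), had a sum of 2426 against 3484 in sample 3. Without Cd14, WT DSS samples 1 to 4 summed to 796, 809, 1490 and 868, so sample 1 was lowest. Their B and plasma cell sums were 266, 270, 312 and 193, lowest in sample 4. Mbd2KO DSS sample 7 had the lowest macrophage and dendritic cell sum of its group (2957) and the highest mean (11.77). Mbd2KO DSS sample 6 was lowest in the B and plasma cell sum (202) and in the mean (11.10), and samples 5 and 7 had the highest B and plasma cell sums (520 and 494) and the highest means (11.47 and 11.77). The part of these cells in the results was not tested.

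Neutrophil markers, 3 of 6 tested and Cxcr2 on 0 arrays, summed to at most 88.3 in naive samples, 122 to 805 in WT with DSS and 201 to 2415 in Mbd2KO with DSS, and DSS raised S100a8 and S100a9 in both genotypes. B and plasma cell markers, 3 of 7 tested and Ms4a1 on 0 arrays, summed to 110 to 196, 193 to 312, 121 to 417 and 202 to 520 in naive WT, WT with DSS, naive Mbd2KO and Mbd2KO with DSS. Several stromal markers were lower in Mbd2KO, where most members were higher. With DSS, 4 of 5 endothelial and 4 of 4 tested smooth muscle markers were lower in Mbd2KO than in WT, with medians of -0.95 and -1.22, against 3.52% of all genes that were lower at an adjusted p under 0.05. Without DSS, Esam was lower (-0.75, adjusted p = 0.0263), against 3.03% of all genes, and the 4 smooth muscle markers were at -0.64 to -0.43 without passing. Of 6 fibroblast markers, Lum was lower in Mbd2KO with DSS (-0.89, adjusted p = 0.0325). DSS raised 4 of the 6 in WT, against 6.26% of all genes. Of the 12 epithelial markers, 0 passed for genotype at an adjusted p under 0.05. Krt20 was at 0.61 with DSS (adjusted p = 0.0619) and 0.64 without (0.0531), and Epcam at -0.62 without (0.0509). DSS lowered Cdh1 in WT (-0.37, adjusted p = 0.0378). The epithelial sums overlapped between all groups (100979 to 125167). In sorted bulk samples, a change in the mix of cells and a change in RNA per cell cannot be told apart.

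The genes with the profile most like the mean of the 9 were A330042I21Rik, Parp14, Tapbpl, Apol7a and Phf11d. Likeness was the root mean square of the difference between profiles centred on their own mean, over 16 samples in log2 units. It was 0.230, 0.237, 0.240, 0.243 and 0.246 for these, and 0.849 for the median gene. Among the members it ran from 0.284 for Tap2 and 0.300 for Psmb10 to 0.760 for Psmb8, whose amplitude was larger than the mean profile's. Parp14 had group means of 8.39, 9.47, 9.62 and 10.30 in naive WT, WT with DSS, naive Mbd2KO and Mbd2KO with DSS. Tapbpl, in the same order, had 8.45, 9.32, 9.48 and 10.26.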

How the data were processed

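Sorted CEC RNA of 16 mouse samples was hybridised to 18 arrays. The authors deposited 1 table of raw bead signal intensity with detection p-values, bead standard errors and bead numbers. Per the labels, lumi and limma were used, and the versions were not given in the sources used here. From the deposited intensity, 936 negative controls served to correct background (neqc, limma 3.58.1, R 4.3.3: normexp, quantile normalisation, offset 16, log2). Probes with a detection p under 0.05 on at least 4 arrays were kept (21938 of 45281), and a gene took its brightest tested probe. A mean per group was fitted with lmFit and eBayes, with Benjamini-Hochberg adjustment over all tested probes. The fit was tested on simulated data. Subunit ratios were tested by exact permutation. The members, gene lists and tests were chosen with earlier results of these data known. 1 gene of the regulator list and 1 motif are not reported here. The text names all 9 members and, from the lists, many but not all of the genes that passed, with others whose role is given. Probe positions on the genome are not printed, because the file's build was not stated. Replicates may pool mice, and the labels do not say which mice, so p-values measure the spread between these samples. The sorted cells came from separate experiments, which the labels do not assign to samples, so experiment was not fitted as a batch. Alternatives covered background, scaling, filter, repeat arrays, variance model, weights, probe choice and each replicate left out.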

Additional observations from a re-analysis of the deposited data

Results flagged for a closer look

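Tapbp held both of the values that stood apart within a group of 4 by Dixon's test, out of 56 groups of 4 tested, and chance gives about 1 in 20, so the number is no more than chance gives. By the brighter probe, naive WT sample 12 was at 7.21, where the other 3 samples were at 6.92 to 6.96. By the other probe, Mbd2KO DSS sample 7 was at 7.73, where the others were at 6.75 to 6.90.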

How the results depend on the processing

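No paired analysis was possible because replicate numbers never repeat across groups. The directions of the genotype differences held for all 9 members under every alternative run, and those of the subunit ratios too, while the counts called moved. For Mbd2KO against WT with DSS, 1 member was called, and it was 0 with no background correction, 0 with no detection filter, 0 with trend and robust empirical Bayes, 2 with median scaling, 2 with the mean over probes, 2 without both samples that stood apart (an alternative chosen after seeing the data), 3 with the 2 groups fitted alone, 4 with array weights and 5 with 18 arrays as separate replicates. Leaving out each replicate gave 0 to 4: 0 without WT DSS sample 2, 3 or 4 or Mbd2KO DSS sample 5, 7 or 8, 2 without Mbd2KO DSS sample 6 or naive Mbd2KO sample 14, 3 without naive Mbd2KO sample 13 or 15, and 4 without naive Mbd2KO sample 16. Without DSS it was 3, 1 with the 2 groups fitted alone, and 2 to 6 over replicates left out (6 without naive Mbd2KO sample 16). For DSS in WT it was 1, 0 with offset 50, no background correction, no detection filter or trend and robust fits, 2 with the 2 groups alone, array weights or both samples left out, 3 with 18 arrays, 5 with median scaling, and 0 to 2 over replicates left out (2 without WT DSS sample 2 or naive Mbd2KO sample 13 or 16, 0 without WT DSS sample 1, 3 or 4 or naive WT sample 9, 10 or 11). For DSS in Mbd2KO it was 0, and 1 with median scaling. The interaction stayed at 0. At an adjusted p under 0.05 the counts ran from 5 to 9, 5 to 8, 2 to 7, 1 to 5 and 0 to 0 in the order above, around 7, 6, 5, 1 and 0. The cause was not tested.

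Some signs turned. The Tapbp difference for DSS in Mbd2KO, -0.19, became 0.14 with median scaling, 0.023 with array weights and 0.13 without both samples that stood apart, and ran from -0.38 to 0.13 over replicates left out. Interactions turned for Tapbp (0.46, and -0.11 with the mean over probes), Psme1 (0.11, then -0.0044 with array weights, -0.028 without both samples, -0.0040 to 0.29 over replicates), Tap2 (0.06, then -0.20 to 0.31 over replicates) and B2m (-0.13, then -0.25 to 0.0072 over replicates). Chip was not run as a block, since the headers do not name it, and the interaction was not run on 2 groups. With 4 samples a group, the interaction for Psmb8 (-0.85) had an interval of -2.07 to 0.37.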
